A study of Mus musculus with 9 samples.

Results

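The miR-322, miR-503 and miR-351 cluster is a group of miRNA hairpins that lie next to each other on mouse chromosome X and also include miR-542, miR-450a and miR-450b. Its members were all rows of the deposited miRNA table whose names start with one of these 6 miRNA names, which gave 13 of the 1251 miRNAs of the table. Small RNA was sequenced from interscapular brown adipose tissue (BAT), inguinal subcutaneous adipose tissue (SAT) and epididymal visceral adipose tissue (VAT), in 9 libraries with 3 from each depot. The tissue came from wild type male C57BL/6J mice that were 5 to 6 weeks old when they were put on a high fat diet (HFD) for 11 weeks, with 45% of energy from fat, 20% from protein and 35% from carbohydrate. Tissue was taken after a 4-hour fast at 16 to 17 weeks of age, so that all 9 libraries shared the diet, the fast, the strain and the sex, and the comparisons are between depots and not between diets. Libraries are named here by the number in their labels, so that BAT has 12, 15 and 20, SAT has 14, 19 and 20, and VAT has 14, 17 and 20, and values listed for a depot follow this order. The paper calls the 3 samples of a depot biological replicates. Nothing in the labels says whether the numbers are those of mice, or whether depots with a shared number share a mouse. P-values thus measure only the spread between these libraries. SAT and VAT are the white depots (WAT).

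A miRNA hairpin is cut into a short duplex, and one of its arms, named 5p or 3p after the side of the hairpin it comes from, is usually kept in an Argonaute protein while the other is degraded. The kept arm finds mRNAs mainly through its seed, the bases just after its first base, so that miRNAs with the same seed can repress the same mRNAs. MiR-322-5p, the mouse counterpart of human miR-424-5p, belongs by its seed to the miR-15/16 family, which is best known for repressing cell cycle genes such as the cyclins, and miR-351-5p shares its seed with the miR-125 family. Hairpins that lie close together on one strand are often made from one primary transcript, but each mature arm has its own processing and stability.

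On the GRCm38.p6 build, RefSeq places 7 hairpins of the cluster on the minus strand within 6353 bases, at chrX:53047997-53054349. In the direction of transcription Mir322 came first (chrX:53054255-53054349), followed by Mir503 after a gap of 200 bases (chrX:53053984-53054054) and by Mir351 after a further 630 bases (chrX:53053255-53053353). Mir542 lay 3767 bases beyond Mir351 (chrX:53049403-53049487), and Mir450-2, Mir450-1 and Mir450b closed the cluster with gaps of 1035, 54 and 75 bases. The RefSeq annotation has a long noncoding RNA gene, C430049B03Rik, at chrX:53053112-53057190, whose span holds Mir322, Mir503 and Mir351, while Mir542 and the 3 Mir450 hairpins lay outside it. The table of genes used here gives no exons, so exonic and intronic positions were not analysed here.

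The mature sequences are shown because the seed decides which miRNAs outside the cluster belong beside its members. They are RefSeq sequences of GRCm38.p6, written 5′ to 3′ with bases 2 to 8, the seed, in capitals. All 13 members had a sequence there. The first set has the 5p arm of miR-322, the members of the miR-15/16 family with the same 7 bases, and miR-503-5p, which shares bases 2 to 7 and not base 8.
miR-322-5p: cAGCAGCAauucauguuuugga
miR-503-5p: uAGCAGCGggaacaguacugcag
miR-16-5p: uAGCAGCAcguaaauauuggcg
miR-15a-5p: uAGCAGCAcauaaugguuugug
miR-15b-5p: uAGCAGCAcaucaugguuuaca
miR-195a-5p: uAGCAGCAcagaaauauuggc
miR-497-5p: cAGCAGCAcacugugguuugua
The second set has miR-351-5p and the 2 miR-125 miRNAs, which have the same 7 seed bases and differ from it after them.
miR-351-5p: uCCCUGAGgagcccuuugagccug
miR-125a-5p: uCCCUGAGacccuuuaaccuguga
miR-125b-5p: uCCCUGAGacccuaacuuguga
The third set has the other members above the lowest value of the table, each with a seed of its own.
miR-322-3p: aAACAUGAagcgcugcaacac
miR-503-3p: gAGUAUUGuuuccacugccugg
miR-542-5p: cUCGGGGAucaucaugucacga
miR-542-3p: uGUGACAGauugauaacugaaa
miR-450a-5p: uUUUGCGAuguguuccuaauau
miR-450b-5p: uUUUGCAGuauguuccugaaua

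Compared without gaps from the first base, miR-322-5p had the same base as miR-15b-5p at 16 of 22 positions, as miR-497-5p at 15 of 22 and as miR-16-5p at 12 of 22. MiR-351-5p had the same base as miR-125a-5p at 10 of 24 positions, 7 of which were the seed. The mature miR-450a-5p is the same in Mir450-1 and Mir450-2, at chrX:53048206-53048227 and chrX:53048339-53048360, so that its value cannot be assigned to either hairpin. The 3p arms of Mir450-1 and Mir450b shared a seed and 20 of 22 bases, and both were at the lowest value of the table in all 9 libraries.

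The deposited values are on a log2 scale, and 839 of the 1251 miRNAs never exceeded the lowest value, 3.32 (the log2 of 10). Sorted by level, the libraries held nearly the same values: at 80 of their top 100 ranks the range over the 9 libraries was under 0.05 on the log2 scale, and it never exceeded 0.14 there, so that a value follows closely from the rank of a miRNA in its library. No read counts came with the table. The paper gives an approximate number of mapped small RNA reads per sample, but the depth of each library is unknown. Each BAT library had 255 to 273 miRNAs above the lowest value, each SAT library 240 to 285 and each VAT library 323 to 349. Levels are tested between depots for one miRNA at a time. Levels of different miRNAs stand side by side only as the table gives them, since small RNAs differ in how efficiently they are sequenced.

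Some libraries stood apart in miRNAs that mark other cells. The summed level of the 9 skeletal muscle miRNAs of the table was 17.21 in BAT 15, 18.68 in BAT 20 and 17.21 in VAT 20, against 10.10 in BAT 12, 9.85 to 10.79 in SAT, 9.85 in VAT 14 and 12.59 in VAT 17. It came mainly from miR-133a-3p, and 4 of the 9, miR-208b-3p, miR-499-5p, miR-1a-1-5p and miR-1a-2-5p, were at the lowest value in all libraries. The summed level of 6 leukocyte miRNAs was 16.79 in SAT 20 and 13.03 to 14.75 in the other 8 libraries, with miR-155-5p at the lowest value in all 9. MiR-150-5p, at 16.72 in SAT 20, made up most of this sum. The summed level of 6 epithelial miRNAs was 14.35 in SAT 14 and 10.23 in VAT 20, against 3.32 in BAT 12, BAT 15 and BAT 20 and 4.07 to 6.48 in the other 4 WAT libraries. MiR-205-5p, at 14.31 in SAT 14 and 10.02 in VAT 20, made up most of the sum in these 2 libraries. The brown adipocyte list of 7 miRNAs, among them miR-193b-3p and miR-365-3p, was higher as a sum in every BAT library, at 14.17 to 15.65, than in SAT, at 11.78 to 12.37, or VAT, at 11.88 to 12.26. In BAT this sum came mainly from miR-193b-3p, while miR-365-3p overlapped, at 11.05 in BAT 20 against 11.34 in SAT 19 and 11.18 in VAT 20. The 2 arms of miR-126, an endothelial miRNA, summed to 11.53 to 12.23 in BAT, 13.27 to 13.61 in SAT and 13.54 to 13.64 in VAT. The 6 fibroblast miRNAs of the miR-199 and miR-214 hairpins summed to 11.62 to 12.10 in BAT, 13.48 to 13.70 in SAT and 14.20 to 14.53 in VAT. This sum holds both miR-199a-3p and miR-199b-3p, which had the same values in every library. MiR-214-3p of the list overlapped between depots, at 10.53 to 10.56 in BAT, 10.43 to 10.82 in SAT and 9.93 to 10.79 in VAT.

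The cluster was not high or low as a whole in any depot. MiR-322-5p was higher in both white depots than in BAT, miR-351-5p was lower in VAT than in BAT or SAT, miR-542-3p was above the lowest value only in BAT, and miR-450a-5p was above it only in VAT. Of the 13 members, 8 were above the lowest value in at least 1 library, and 7 were above it in at least 3 of the 9 libraries and were tested. The other 5, miR-503-5p, miR-351-3p, miR-450a-1-3p, miR-450a-2-3p and miR-450b-3p, were at the lowest value in all 9 libraries. MiR-542-3p entered the test only through its 3 BAT libraries and miR-450a-5p only through its 3 VAT libraries, so that these 2 had to differ between depots, and their calls are no test.

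**Figure D1:**
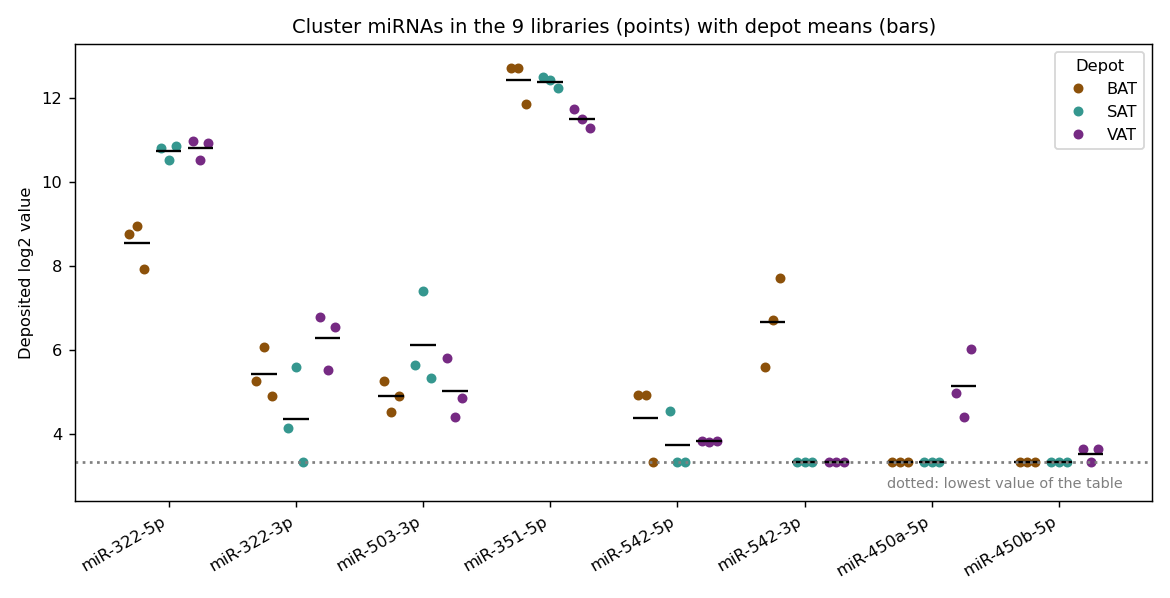
Deposited log2 values (vertical axis) of the 8 cluster miRNAs that exceeded the lowest value anywhere, as 1 point per library and a bar at the depot mean, with the lowest value of the table dotted. The 3 BAT points of miR-322-5p, at 7.94 to 8.96, sit below all 6 SAT and VAT points, and the 3 VAT points of miR-351-5p, at 11.29 to 11.75, sit below all 6 BAT and SAT points.

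MiR-322-5p, the member with the miR-15/16 seed, was at 8.77, 8.96 and 7.94 in BAT 12, BAT 15 and BAT 20. It was at 10.82, 10.54 and 10.87 in SAT 14, SAT 19 and SAT 20, and at 10.99, 10.53 and 10.93 in VAT 14, VAT 17 and VAT 20. Every SAT and VAT library was above every BAT library, and SAT and VAT overlapped. By rank it was between 117 and 150 of the 1251 miRNAs in BAT, between 74 and 81 in SAT and between 72 and 82 in VAT. The depot means were 8.56 ± 0.54 in BAT, 10.75 ± 0.18 in SAT and 10.81 ± 0.25 in VAT (SD, n = 3 libraries). The VAT/BAT comparison gave a log2 fold change of 2.26 with a standard error of 0.34, or 4.78-fold (adjusted p = 0.0017). This and all other adjusted p-values of fold changes come from limma with Benjamini-Hochberg adjustment over the 343 tested miRNAs. In SAT/BAT the log2 fold change was 2.19 with a standard error of 0.31, or 4.56-fold (adjusted p = 0.00544). The VAT/SAT difference of 0.07 did not pass the test (adjusted p = 0.835), with a 95% interval of -0.38 to 0.52. The 3 comparisons share libraries and are not independent of each other. In whole tissue, fewer cells of a type and less of the RNA per cell cannot be told apart. The endothelial and fibroblast sums above also differed between BAT and the white depots. The leukocyte sum overlapped between depots, at 14.31 to 14.75 in BAT, 13.70 to 16.79 in SAT and 13.03 to 14.33 in VAT. Within that list miR-223-3p was higher in every white library than in BAT, while miR-150-5p was lower in every VAT library than in BAT. The part of these lists in the miR-322-5p difference was not tested.

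Among the BAT libraries, BAT 20 was lowest for miR-322-5p and highest in the skeletal muscle list, BAT 15 was highest for miR-322-5p and also high in the list, and BAT 12 was between them for miR-322-5p and low in the list. The part of the muscle miRNAs in the miR-322-5p difference was not tested. Without BAT 15, BAT 20 and VAT 20, the miR-322-5p log2 fold change was 1.97 in SAT/BAT (adjusted p = 0.0199) and 1.99 in VAT/BAT, where the call was lost (adjusted p = 0.072). Only BAT 12 then stood for its depot and was assumed to vary like the other libraries. With 1 library left out at a time, the VAT/BAT value stayed between 1.95 and 2.46 (adjusted p 0.00157 to 0.0136) and the SAT/BAT value between 1.88 and 2.39 (adjusted p 0.00248 to 0.0283).

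MiR-322-3p, the arm opposite miR-322-5p, was at 5.26, 6.08 and 4.91 in the 3 BAT libraries, 4.13, 5.60 and the lowest value, 3.32, in SAT, and 6.78, 5.53 and 6.54 in VAT. Every pair of depots overlapped, VAT and SAT only through VAT 17 and SAT 19. Its log2 fold changes did not pass the test: 0.87 in VAT/BAT (adjusted p = 0.136, 95% interval -0.24 to 1.98), -1.07 in SAT/BAT (adjusted p = 0.271) and 1.93 in VAT/SAT (adjusted p = 0.118).

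Of the Mir503 hairpin, the 5p arm that resembles miR-322-5p in its seed was at the lowest value in all 9 libraries, and the opposite arm, miR-503-3p, was the one measured. In BAT miR-503-3p was at 5.26, 4.51 and 4.91, in SAT at 5.64, 7.41 and 5.33, and in VAT at 5.80, 4.40 and 4.85. SAT was above BAT without overlap, by little in SAT 20 and by most in SAT 19, and the SAT/BAT log2 fold change of 1.23 did not pass the test (adjusted p = 0.178, 95% interval -0.41 to 2.88). The VAT/BAT value was 0.13 (adjusted p = 0.801) and the VAT/SAT value -1.11 (adjusted p = 0.339).

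MiR-351-5p, which has the miR-125 seed, had the highest level among the cluster members in each library. In BAT it was at 12.74, 12.74 and 11.88, in SAT at 12.50, 12.45 and 12.25, and in VAT at 11.75, 11.51 and 11.29. All 3 VAT libraries were below every BAT and SAT library, with VAT 14 closest to BAT 20, while BAT and SAT overlapped. Its rank was 42 to 55 in BAT, 45 to 49 in SAT, and 57 to 66 in VAT. The means were 12.45 ± 0.49 in BAT, 12.40 ± 0.13 in SAT and 11.52 ± 0.23 in VAT (SD, n = 3 libraries). MiR-351-5p was lower in VAT by 1.91-fold against BAT (log2 fold change -0.93 ± 0.32 (SE), adjusted p = 0.04) and by 1.85-fold against SAT (log2 fold change -0.89 ± 0.16 (SE), adjusted p = 0.0276). The SAT/BAT value of -0.05 did not pass the test (adjusted p = 0.938), with a 95% interval of -0.77 to 0.68.

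Both miR-351-5p calls were near the threshold. The VAT/BAT call was lost without BAT 12 or BAT 15 (log2 fold change -0.79 in both fits, adjusted p 0.111 and 0.101), without VAT 14 (-1.05, adjusted p = 0.0632), without VAT 17 (-0.93, adjusted p = 0.0982) and without VAT 20 (-0.82, adjusted p = 0.112), and kept without BAT 20 (-1.22, adjusted p = 0.0056). The VAT/SAT call was lost without SAT 14 (-0.84, adjusted p = 0.0641), SAT 19 (-0.86, adjusted p = 0.0707), SAT 20 (-0.96, adjusted p = 0.065), VAT 17 (-0.89, adjusted p = 0.0678) or VAT 20 (-0.77, adjusted p = 0.0666), and kept without VAT 14 (-1.0, adjusted p = 0.0432). Without the 3 libraries high in skeletal muscle miRNAs, the VAT/BAT value was -1.10 (adjusted p = 0.0699). The direction was the same in each of these fits.

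MiR-542-3p was at 5.60, 6.71 and 7.71 in BAT 12, BAT 15 and BAT 20 and at the lowest value in all 6 SAT and VAT libraries. The BAT mean was 6.67 ± 1.06 (SD, n = 3 libraries), so that miR-542-3p was at least 10.2-fold lower in VAT and in SAT than in BAT, where the bound sets the BAT mean against the lowest value. No p-value is given for it, because only its BAT libraries took it past the filter. Within BAT its level had the same order as the skeletal muscle list, lowest in BAT 12, with a list level of 10.10, and highest in BAT 20, with 18.68. In VAT 20, where the list was at 17.21, miR-542-3p was at the lowest value. The part of the muscle miRNAs in the BAT values was not tested.

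MiR-542-5p, the opposite arm, was at 4.92 in BAT 12 and BAT 15 and at the lowest value in BAT 20, the library with the highest miR-542-3p value. It was at 4.55, 3.32 and 3.32 in SAT and at 3.83, 3.80 and 3.83 in VAT. No comparison passed the test, at -0.57 on the log2 scale in VAT/BAT (adjusted p = 0.309), -0.65 in SAT/BAT (adjusted p = 0.425) and 0.08 in VAT/SAT (adjusted p = 0.904). These calls turned on single libraries: without BAT 20 the VAT/BAT value was -1.10 (adjusted p = 0.00384), and without SAT 14 the VAT/SAT value was 0.49 (adjusted p = 0.0332).

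MiR-450a-5p was at 4.98, 4.40 and 6.03 in VAT 14, VAT 17 and VAT 20 and at the lowest value in all 6 BAT and SAT libraries. The level in VAT was thus higher by at least 3.52-fold than that in BAT or SAT, again with no p-value, because only its VAT libraries took it past the filter. VAT 20, high in skeletal muscle miRNAs, had the highest miR-450a-5p value, and the part of this in the VAT mean was not tested. MiR-450b-5p was at 3.63 in VAT 14 and VAT 20 and at the lowest value in the other 7 libraries, and was not tested. More miRNAs of any kind were above the lowest value in VAT than in BAT or SAT, and the part of this in the miR-450a-5p and miR-450b-5p values was not tested.

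**Figure D2:**
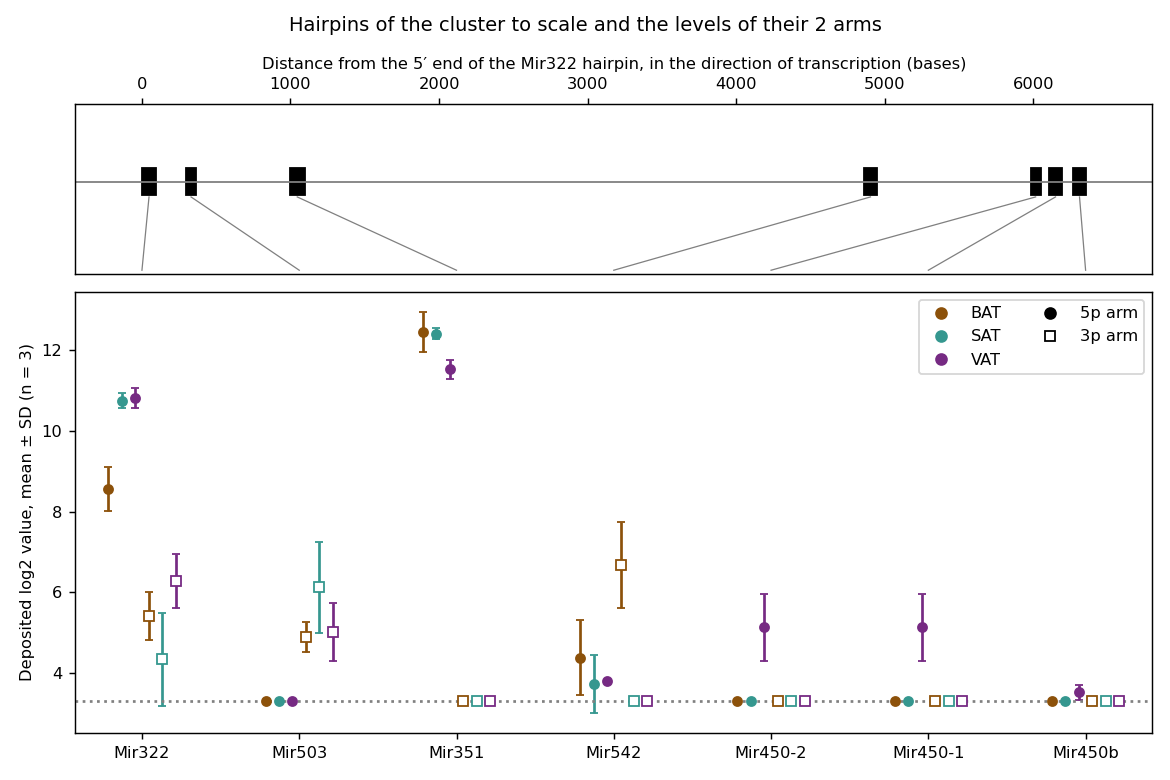
The upper panel draws the 7 hairpins to scale by distance in bases from the 5′ end of Mir322, and the lower panel gives the deposited log2 value of the 5p arm (filled circles) and 3p arm (open squares) of each, as mean ± SD of 3 libraries per depot, with the lowest value dotted and miR-450a-5p drawn under both hairpins that hold it. The high values belong to the 5p arms of Mir322 and Mir351, and between them on the map the 5p arm of Mir503 is at the lowest value in all depots.

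Read along the locus, levels did not fall or rise steadily from the first hairpin to the last. Mir351 had the highest level, while Mir503, which lies between Mir322 and Mir351, was between 4.40 and 7.41 on its 3p arm and at the lowest value on its 5p arm. The 4 hairpins beyond the long gap were below Mir322 and Mir351 in every library, with a highest value of 7.71, for miR-542-3p in BAT 20.

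Counted over the cluster, 4 of the 7 tested members were called in VAT/BAT, 2 higher and 2 lower, against 66.2% of all 343 tested miRNAs (39.4% higher and 26.8% lower). In SAT/BAT 2 of 7 were called, 1 higher and 1 lower, against 40.5% of all tested (22.4% higher and 18.1% lower). In VAT/SAT 1 of 7 was called, lower in VAT, against 16% of all tested (8.45% higher and 7.58% lower). These counts include miR-542-3p and miR-450a-5p, which entered the test through 1 depot alone. Under the thresholds of the study, an unadjusted p under 0.05 with a minimum fold change, 4, 2 and 3 of the 7 were called, against 68.8%, 49.9% and 35.6% of all tested. These shares are close to or below those of all miRNAs and are no result about the cluster. The members' median log2 fold change was 0.13 in VAT/BAT, -0.05 in SAT/BAT and 0.07 in VAT/SAT, beside 0.40, 0.26 and 0.10 over all tested miRNAs.

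Within a library, the levels of 2 miRNAs from one locus can be set against each other, although a difference from a value near the lowest depends on the offset of the table. MiR-322-5p was above miR-322-3p by 3.51, 2.88 and 3.03 on the log2 scale in BAT, by 6.70, 4.94 and 7.55 in SAT, and by 4.21, 4.99 and 4.39 in VAT. All 6 white libraries had a wider gap between the arms than any BAT library, and the value for SAT 20 is a lower bound because miR-322-3p was at the lowest value there. Over the 3 depots, the differences between depot means gave p = 0.00714 in an exact two-sided permutation test (adjusted p = 0.0107 over 3 such tests). The other tests in this adjustment were the Mir542 arms and a pair chosen after its values were seen. The permutation over 3 depots was itself chosen after the values were seen, which neither p-value accounts for. Between 2 depots, 3 against 3 libraries cannot give an exact p below 0.1, which was reached in VAT/BAT and SAT/BAT (difference 1.39 and 3.25, adjusted p = 0.15 over 6 tests), and the exact p was 0.2 in VAT/SAT. With the lowest value subtracted and 1 added, the differences between depots were 1.24 in VAT/BAT, 4.47 in SAT/BAT and -3.23 in VAT/SAT, in place of 1.39, 3.25 and -1.87. The arms of Mir542 differed the other way, with miR-542-5p below miR-542-3p by 0.68, 1.79 and 4.39 in BAT, and above it by 1.23, 0 and 0 in SAT and by 0.50, 0.47 and 0.50 in VAT. MiR-542-3p was at the lowest value in all white libraries, so that this contrast restates its BAT values and is given with no p-value, and its size depends on the offset, with a VAT/BAT difference of 2.78 as deposited and 5.92 with the lowest value subtracted and 1 added.

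The distance between the 2 abundant members differed by depot, with an SD within a depot of 0.10 in BAT, 0.26 in SAT and 0.32 in VAT. This difference was chosen after its values were seen. MiR-322-5p was below miR-351-5p by 3.96, 3.78 and 3.94 in BAT, by 1.68, 1.91 and 1.38 in SAT and by 0.76, 0.99 and 0.36 in VAT, with no overlap between any 2 depots. The exact permutation p over the 3 depots was 0.00357, the smallest that 1680 assignments of the libraries can give (adjusted p = 0.0107). Neither value accounts for the choice of this pair, so both only describe how far the depots lay apart. In BAT this SD was smaller than the SD of either miRNA, 0.54 and 0.49, since both were lowest in BAT 20. Depot means differed by 3.19 in VAT/BAT, 2.23 in SAT/BAT and 0.96 in VAT/SAT, each with an exact p of 0.1.

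**Figure D3:**
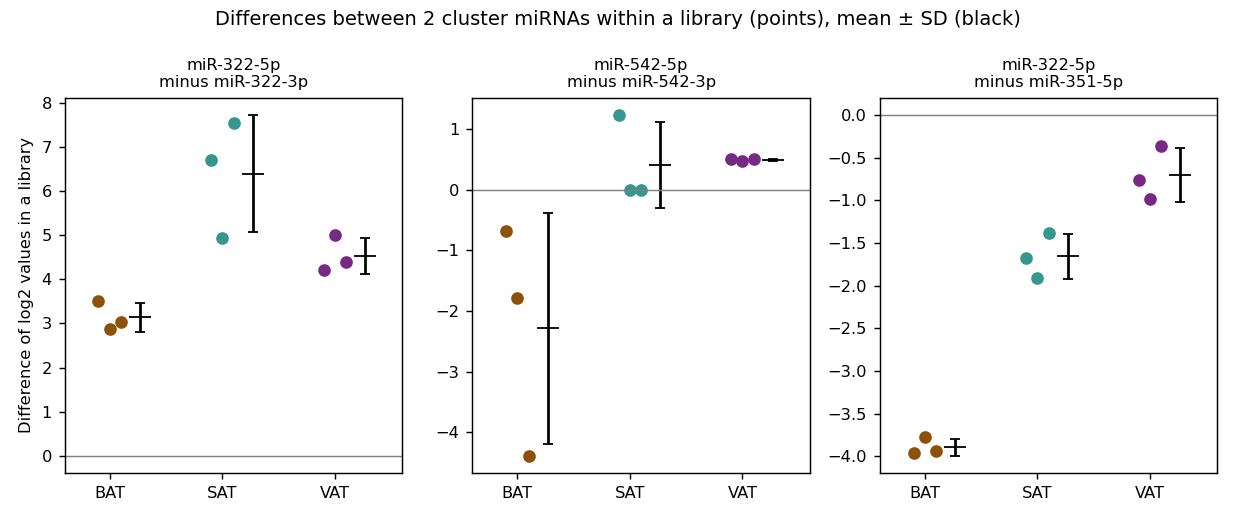
Differences of log2 values (vertical axes) between 2 cluster miRNAs of the same library, as 1 point per library by depot with the mean ± SD of 3 libraries in black. In the right panel the BAT points lie between -3.96 and -3.78, the SAT points between -1.91 and -1.38 and the VAT points between -0.99 and -0.36.

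As a share of the summed unlogged values of the cluster above the lowest, miR-351-5p made up 88.8 to 92.6% in the BAT libraries, 72.0 to 76.9% in SAT and 54.2 to 65.6% in VAT. MiR-322-5p made up 5.57 to 6.52% in BAT, 20.4 to 27.5% in SAT and 33.0 to 42.2% in VAT. The next largest share was that of miR-542-3p in BAT, 0.523 to 4.72%. The summed level of the cluster was 12.05 to 12.87 in BAT, 12.73 to 12.91 in SAT and 12.12 to 12.46 in VAT on the log2 scale, so that the depots lay closer in the sum than in its make-up. These shares assume that both miRNAs were sequenced with like efficiency in every library. As a value follows closely from the rank of a miRNA in its library, they describe the deposited values and are not shares of reads.

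The miRNAs outside the cluster with the miR-322-5p seed had rows for miR-16-5p, miR-15a-5p, miR-15b-5p, miR-195a-5p and miR-497-5p above the lowest value. Of these 5, 4 were called higher in VAT than in BAT, against 39.4% of all tested, with a median log2 fold change of 2.15 beside 0.40. In SAT/BAT 3 of the 5 were called higher, against 22.4% (median 1.28 beside 0.26), and in VAT/SAT 1 of the 5 was called higher, against 8.45% (median 0.14 beside 0.10). MiR-497-5p and miR-195a-5p, which are made from one locus of their own, were called in the same 2 comparisons as miR-322-5p, by 2.11 and 3.23 on the log2 scale in VAT/BAT (adjusted p 0.00278 and 0.00371), 2.26 and 3.09 in SAT/BAT (adjusted p 0.00555 and 0.0116), and -0.16 and 0.14 in VAT/SAT (adjusted p 0.513 and 0.811).

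In BAT miR-497-5p was at 9.31, 10.41 and 9.43, in SAT at 12.07, 11.94 and 11.94, and in VAT at 12.07, 11.60 and 11.81. MiR-195a-5p was at 6.72 ± 1.04 in BAT, 9.81 ± 0.16 in SAT and 9.95 ± 0.59 in VAT (SD, n = 3 libraries). Both were higher in all white libraries than in any BAT library, and both overlapped between SAT and VAT. MiR-15a-5p instead separated SAT from VAT too, at 8.04 to 8.63 in SAT and 9.59 to 9.80 in VAT (log2 fold change 1.36, adjusted p = 0.0235). MiR-15b-5p had its highest mean, 11.62, in SAT, with 10.34 in BAT and 10.56 in VAT, and no comparison that passed the test (adjusted p 0.58 in VAT/BAT, 0.0553 in SAT/BAT and 0.0864 in VAT/SAT).

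With the unlogged values above the lowest summed over the 10 miRNAs of the table that have this seed, 4 of which were at the lowest value throughout, the pool was at 12.65 ± 0.55 in BAT, 14.08 ± 0.28 in SAT and 14.61 ± 0.24 in VAT on the log2 scale (SD, n = 3 libraries). MiR-322-5p made up 5.2 to 6.6% of it in BAT, 8.75 to 12.5% in SAT and 6.68 to 7.83% in VAT, while miR-16-5p made up 54.3 to 58.0%, 33.9 to 44.9% and 60.9 to 69.9%. By these shares of the deposited values, which are not shares of reads, miR-322-5p was a minor part of its seed family in all depots. Of the passenger arms of this family, 4 of 6 were at the lowest value throughout, and of the 2 tested, miR-15b-3p and miR-195a-3p, 1 was called higher in VAT/BAT (against 39.4% of all tested) and 1 in VAT/SAT (against 8.45%), and none in SAT/BAT, where limma's test also gave none at an unadjusted p under 0.05.

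Of the 2 miR-125 miRNAs with the miR-351-5p seed, 1 was lower in VAT in the same comparisons as miR-351-5p, where 26.8% and 7.58% of all tested were called lower. MiR-125a-5p was at 17.20, 16.38 and 16.51 in BAT, 16.51 in all 3 SAT libraries and 15.70, 15.30 and 15.16 in VAT. It was lower in VAT by 1.31 on the log2 scale against BAT (adjusted p = 0.0109) and by 1.12 against SAT (adjusted p = 0.0235), and its SAT/BAT value of -0.19 did not pass the test (adjusted p = 0.568). MiR-125b-5p was between 13.74 and 14.52 in all libraries, with values of -0.07 in VAT/BAT (adjusted p = 0.801), -0.33 in SAT/BAT (adjusted p = 0.201) and 0.26 in VAT/SAT (adjusted p = 0.225). In SAT/BAT neither of the 2 had an unadjusted p under 0.05 in limma's test. The summed level of the 5 miRNAs with this seed, 2 of them at the lowest value throughout, had means of 17.00 ± 0.40 in BAT, 16.80 ± 0.03 in SAT and 15.97 ± 0.21 in VAT (SD, n = 3 libraries), and miR-351-5p made up 3.28 to 6.25%, 4.37 to 5.11% and 4.44 to 4.66% of it.

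**Figure D4:**
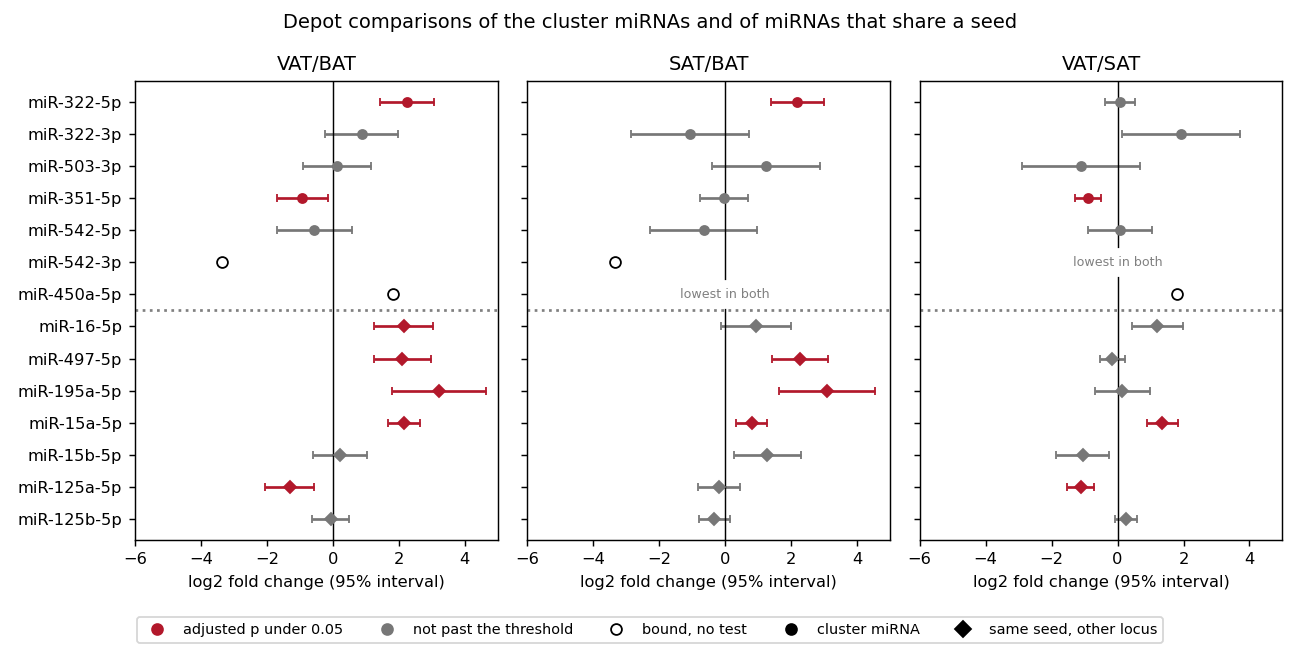
Log2 fold changes (horizontal axes) with 95% intervals from limma for VAT/BAT (left), SAT/BAT (middle) and VAT/SAT (right), for 7 cluster miRNAs (circles) and 7 miRNAs of other loci that share the seed of miR-322-5p or miR-351-5p (diamonds), in red where the adjusted p was under 0.05. For miR-542-3p and miR-450a-5p the open circles are bounds of 1 depot against the lowest value, with no interval or test, and miR-322-5p, at 2.26, 2.19 and 0.07, lies beside miR-497-5p, at 2.11, 2.26 and -0.16.

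The profiles most like those of the 2 abundant members were sought among the 336 other tested miRNAs, by the root mean square difference of values centred on their own mean over the 9 libraries. Nearest to miR-322-5p were miR-143-3p (0.24), miR-126-3p (0.264), miR-497-5p (0.287), miR-26a-5p (0.292) and miR-103-3p (0.311), where the median over all candidates was 1.19. Each of the 5 was lower in the 3 BAT libraries than in all 6 SAT and VAT libraries. As they were chosen for likeness to miR-322-5p, which has this pattern, this is no separate result. MiR-126-3p is the endothelial miRNA of the marker lists, and miR-497-5p shares the seed. Nearest to miR-351-5p were miR-139-5p (0.096), miR-350-5p (0.275), miR-125a-5p (0.302), miR-106b-3p (0.354) and miR-339-5p (0.375), with a median of 1.15. MiR-139-5p followed miR-351-5p closely, with means of 12.12 in BAT, 11.88 in SAT and 11.08 in VAT and, like miR-351-5p, its lowest BAT value in BAT 20. The distance between miR-322-5p and miR-351-5p themselves was 1.35, above the medians of both. The other tested members lay 1.03 to 2.73 from miR-322-5p and 0.549 to 1.57 from miR-351-5p. The 9 libraries share 3 depots and closely shared values at each rank, so these distances are descriptions.

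**Figure D5:**
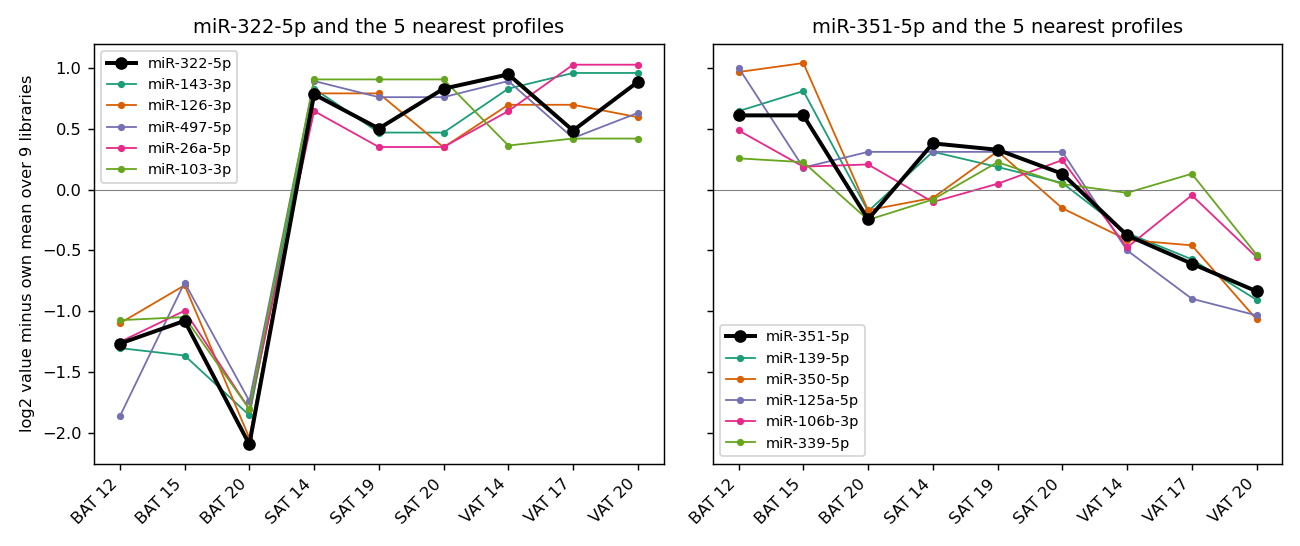
Log2 values minus their own mean over the 9 libraries (vertical axes) for miR-322-5p (left) and miR-351-5p (right) in black, each with its 5 nearest profiles in colour, by library along the horizontal axis. The left profiles step up from BAT to SAT and VAT and dip in BAT 20, and miR-351-5p and miR-139-5p on the right fall from SAT to VAT and are 0.10 apart by root mean square difference.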

How the data were processed

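The authors aligned the small RNA reads with miRBase hairpins and counted those on mature arms, splitting a read with more than 1 place among its places, then scaled counts to the usable reads and added 40. The deposited table holds log2 values whose lowest is 3.32, the log2 of 10. The labels name build mm10, which is GRCm38. The aligner of the small RNA reads is not given in the sources used here. The table has no counts, and the paper gives only an approximate number of mapped small RNA reads per sample. The depth of each library is thus unknown. No counting interval is given, and the spread of 3 libraries per depot is the measure of precision.

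Values were used as deposited. The 343 miRNAs that exceeded the lowest value in 3 or more of 9 libraries were fitted for each pair of depots on its 6 libraries with limma 3.58.1 in R 4.3.3, two-sided, called at an adjusted p under 0.05 (Benjamini-Hochberg). The test was tried on simulated data first. Differences within a library were compared by exact permutation in Python 3.11.15. Sums are of unlogged values above the lowest, with the lowest added back. Folds against a depot at the lowest value are lower bounds, and no p-value is given for the 2 tested members above it in 1 depot only. Of the 1251 names, 1012 were matched to RefSeq miRNAs, 1001 of them exactly.

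The members and lists were chosen with earlier results of these data known. All members were named, with the miRNAs that share a seed, the marker lists, and the 5 tested miRNAs nearest in profile to miR-322-5p and to the next most abundant member from another hairpin. The alternatives were other offsets, filters, scalings, fits, replicate blocks and thresholds, and each library left out. Leaving out BAT 15, BAT 20 and VAT 20, the permutation over 3 depots and the difference of miR-322-5p and miR-351-5p were chosen after the values were seen.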

Additional observations from a re-analysis of the deposited data

Results flagged for a closer look

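The gap between the arms of Mir322 differed between depots, with mean log2 differences of 5p minus 3p of 3.14 ± 0.33 in BAT, 6.40 ± 1.33 in SAT and 4.53 ± 0.41 in VAT (SD, n = 3 libraries, exact permutation p = 0.00714 over the 3 depots). The difference of miR-322-5p and miR-351-5p had depot means of -3.89 ± 0.10 (BAT), -1.66 ± 0.26 (SAT) and -0.70 ± 0.32 (VAT) (SD, n = 3, exact permutation p = 0.00357, the smallest that 1680 assignments allow). The permutation over the 3 depots and the pair of this last difference were chosen after the values were seen, which neither p-value accounts for. For the Mir322 arms, the planned exact permutation tests between 2 depots gave p = 0.1 in VAT/BAT, 0.1 in SAT/BAT and 0.2 in VAT/SAT, where 0.1 is the smallest possible. In SAT 20 miR-322-3p was at the lowest value, so that its gap is a lower bound.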

How the results depend on the processing

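Where they passed, miR-542-3p and miR-450a-5p are part of the counts below. Their calls are no test, so these counts are not read for stability. Apart from them, the calls on the values as deposited were miR-322-5p and miR-351-5p in VAT/BAT, miR-322-5p in SAT/BAT and miR-351-5p in VAT/SAT. The number of members called in VAT/BAT was 4, and it was 2 without a filter, 2 among the miRNAs with the higher mean, and 3 to 5 with 1 library left out. In SAT/BAT it was 2, and 1 without a filter or among the miRNAs with the higher mean. In VAT/SAT it was 1. It was 2 with the lowest value subtracted and 1 added or with a common median, 3 at the thresholds of the study, and 0 without a filter, relative to miR-191-5p, without moderation, without BAT 15, BAT 20 and VAT 20, or with a replicate block by the number in the source names. With 1 library left out it was 0 to 1, and it was 0 without SAT 19, SAT 20 or VAT 20.

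MiR-351-5p lost its VAT/BAT call in 9 of 19 settings (adjusted p 0.0056 to 0.241 over all) and its VAT/SAT call in 12 of 20 (0.0185 to 0.208). MiR-322-5p lost its VAT/BAT call in 1 of 19 settings and kept its SAT/BAT call in all 19. MiR-542-3p and miR-450a-5p entered the test through 1 depot alone, so their calls are not read for stability.

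Values that changed sign had not passed the test. MiR-503-3p in VAT/BAT was -0.16 without BAT 15, BAT 20 and VAT 20 and ranged from -0.26 to 0.44 with 1 library left out. MiR-351-5p in SAT/BAT ranged from -0.33 to 0.10, and miR-322-5p in VAT/SAT from -0.034 to 0.21, with 1 left out. MiR-542-5p in VAT/SAT was -0.0015 with a further 40 added, -0.16 after quantile normalization, and -0.12 to 0.49 with 1 left out, the same range as the difference of the Mir542 arms. The causes were not tested.

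Over all tested miRNAs, the calls fell from 227 to 128 without a filter, 120 among those with the higher mean and 130 without BAT 15, BAT 20 and VAT 20 in VAT/BAT, and from 139 to 74 without a filter in SAT/BAT. The 55 calls in VAT/SAT were 4 without a filter, 2 relative to miR-191-5p, 30 in a fit of all 9 libraries, 13 without moderation, 122 at the thresholds of the study, and 0 to 49 with 1 library left out. Whether the shared numbers mark shared mice is not stated. The deviations of same-numbered libraries had correlations of -0.14 to 0.27 over 4 pairs by title and -0.17 to 0.36 over 9 by source name. Their means were 0.046 and 0.050, beside -0.0075 and -0.024 for pairs of different number. The bar for pairing, an r over 0.1 in every pair, was not met, so pairing was not assumed. With so few libraries this does not show that the mice were separate. The replicate block by title number gave 1 member called in VAT/SAT in fits of 6 or 9 libraries (55 and 30 of all miRNAs), and that by source name gave 0 of all. By source name, 4 and 2 members were called in VAT/BAT and SAT/BAT, with miR-542-3p and miR-450a-5p counted where they passed. With 3 libraries a depot, values near the lowest are the least certain.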

Other observations

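Apart from the cluster members, 117 miRNAs of the table had precursors on chromosome X alone, of which 92 were at the lowest value in every library and 18 were tested. In VAT/BAT 12 of the 18 were called by limma, 9 higher and 3 lower, which is 66.7% beside 66.2% of all tested. In SAT/BAT 9 of the 18 were called (7 higher and 2 lower, beside 40.5%), and in VAT/SAT 8 of the 18 (5 higher and 3 lower, 44.4% beside 16%). Their median log2 fold change was 0.78 in VAT/BAT, 0.82 in SAT/BAT and -0.25 in VAT/SAT, beside 0.40, 0.26 and 0.10 over all tested miRNAs.

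The background for the marker lists is the share of all tested miRNAs that was called. In VAT/BAT 39.4% were called higher and 26.8% lower. For SAT/BAT these shares were 22.4% and 18.1%, and for VAT/SAT they were 8.45% and 7.58%. The lists are small and nothing particular to them is read from their counts. Among the lists, the 6 fibroblast miRNAs had 5 called higher in VAT and 5 called higher in SAT than in BAT, and 2 called higher in VAT than in SAT, where miR-199a-3p and miR-199b-3p had the same values and count as 1 measurement. Both arms of miR-126 were called higher in VAT and in SAT than in BAT, and neither in VAT/SAT. Of 5 tested leukocyte miRNAs, 4 were called higher and 1 lower in VAT than in BAT, 1 higher in SAT than in BAT and 1 higher in VAT than in SAT. Of 6 tested brown adipocyte miRNAs, 5 were called lower in VAT and 4 lower in SAT than in BAT, and none in VAT/SAT, where 1 had an unadjusted p under 0.05 in limma's test. The 4 tested skeletal muscle miRNAs and the 2 tested epithelial miRNAs had no call in any comparison and none at an unadjusted p under 0.05 in limma's test.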
